A study of Mus musculus with 12 samples.

Results

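The genes described here are 37 genes of the endothelium, the cell layer that lines blood and lymph vessels. They are 33 genes of endothelial identity (receptors, junction proteins, secreted factors, transcription factors and scavenger receptors) and 4 adhesion genes that inflamed endothelium switches on, Sele, Selp, Icam1 and Vcam1. The list was set by gene function, with earlier results of these data known. All 37 were found among the 12393 genes with a probe set on the array, through 54 of the 22626 probe sets. Of the 37 genes, 25 had 1 probe set and 12 had several.

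RNA was taken on day 7 from the lung and the liver of female NCR nude mice, a strain without a thymus, so every group lacks most mature T cells. Tumor-bearing mice had received 4T1 cells, a mouse mammary carcinoma line, placed orthotopically, and control mice had received phosphate-buffered saline (PBS). The design text names 3 mice per arm, each giving lung and liver, so the 4 groups hold 3 Affymetrix arrays each, 12 in all. Values are log2 expression values deposited by the authors; with arrays, their number sets the precision. A log2 difference of 1 is a 2-fold difference.

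Endothelial cells differ between organs. Lung capillaries have a continuous wall sealed by tight and adherens junctions, whereas liver sinusoids have a fenestrated wall that carries scavenger receptors. Under inflammatory cytokines endothelium displays selectins, on which leukocytes roll, and the ligands ICAM-1 and VCAM-1, to which their integrins hold; NF-kappa-B drives much of that response, and factors of the ETS family hold endothelial genes on. The tumor comparisons ask whether vessels of organs that the sample titles call pre-metastatic differ from those of controls.

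The DNA before the start of 3 genes is shown because the results turn on them: Selp had the largest difference in mean with tumor among the adhesion genes, Icam1 is the adhesion gene with the highest baseline contrast between the organs, and Cldn5 has the largest baseline contrast of all 37. Each is the 250 bases before the start of the gene on the plus strand, from RefSeq, build GRCm38.p6, for Selp at chr1:164115014-164115263, Icam1 at chr9:21015690-21015939 and Cldn5 at chr16:18776597-18776846.
Selp: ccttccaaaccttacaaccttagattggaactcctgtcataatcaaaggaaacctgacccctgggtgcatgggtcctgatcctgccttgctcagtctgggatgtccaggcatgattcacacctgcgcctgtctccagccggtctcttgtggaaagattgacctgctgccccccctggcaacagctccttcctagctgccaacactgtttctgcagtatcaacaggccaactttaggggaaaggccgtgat
Icam1: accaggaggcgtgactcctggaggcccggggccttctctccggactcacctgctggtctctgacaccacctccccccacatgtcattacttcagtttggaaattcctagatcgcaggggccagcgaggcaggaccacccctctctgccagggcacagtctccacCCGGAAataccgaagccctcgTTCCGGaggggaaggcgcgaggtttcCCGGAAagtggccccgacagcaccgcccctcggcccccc
Cldn5: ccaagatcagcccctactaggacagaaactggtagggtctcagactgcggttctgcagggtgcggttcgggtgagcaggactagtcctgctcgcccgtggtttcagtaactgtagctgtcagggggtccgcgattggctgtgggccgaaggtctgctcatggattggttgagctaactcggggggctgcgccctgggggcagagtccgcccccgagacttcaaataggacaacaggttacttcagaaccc
Capitals mark the ETS core CCGGAA, searched on both strands. It occurs 3 times in the Icam1 window, with the middle match on the minus strand, and has no match in those of Selp and Cldn5. The kappa-B consensus, searched on both strands as a strict pattern of 10 letters, had no match in these 3 windows. Sites that depart from this pattern were not searched, so a window without a match may still hold a kappa-B site. Over the 32851 promoter windows of this length, 12% held the ETS core and 7.25% the kappa-B consensus. Of the 22 members in that table, 2 (Icam1 and Kdr) held the first and 3 (Ednrb, Flt1 and Kdr) the second. These matches are descriptions of sequence.

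Within a group the correlation between arrays was 0.989 to 0.996, and no pair of arrays was identical. Between 26.7% and 28.5% of each array's values lay within 0.05 of the lowest value, 2.044. Alveolar epithelial markers (6 of 7 measured) had a mean of 14.88 to 15.08 on lung arrays and 3.77 to 4.81 on liver arrays, and hepatocyte markers (7 of 8 measured) a mean of 15.58 to 15.65 on liver arrays. Some arrays stood apart before any comparison. Hepatocyte markers averaged 10.37 in lung control 3 and 9.29 in lung tumor 1, against 4.49 to 5.90 on the other lung arrays. Cardiac markers, 7 of 7 measured, averaged 4.23 in lung control 1 and 6.28 in lung tumor 1, against 8.73 to 10.17 on the others. In liver control 2 the alveolar mean was 4.81, against 3.77 to 4.24 on the other liver arrays. The defining endothelial genes were clearly present in lung: Pecam1 read 12.16 to 12.57 and Cdh5 11.84 to 12.32 on the lung arrays.

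The endothelial genes differed most between the organs. In control mice 32 of the 33 members tested were higher in lung than in liver and 1, Stab2, was lower, at adjusted p under the threshold of 0.05 (limma with Benjamini-Hochberg adjustment). A gene needed 3 or more arrays above 4 to be tested. Emcn, Edn1, Sox17, Cd34 and Angpt1 reached this only through their lung arrays, and Stab2 only through its liver arrays. Their direction, in this count and in that of arrays not overlapping, was therefore fixed in advance. The contrast between organs is broad: 81.1% of the 8270 genes tested passed in one or other direction, 45.6% higher and 35.5% lower in lung. The arrays of the control groups did not overlap for 32 of the 33 members, 31 higher and 1 lower in lung, where 84.8% of all genes tested did not overlap (47.6% higher, 37.2% lower), and the median difference of the members was 4.77 against 0.18 over all genes tested; with the 6 genes known only to a bound set at it, the members' median was 4.65. Another scaling moved the median over all genes tested, 0.18, to 0.05 (quantile normalization) or -0.25 (median centring). The share of calls higher in lung went from 56.2% as deposited (3768 higher, 2937 lower) to 41.8% with median centring (2868 higher, 3993 lower). These are bulk tissues, so fewer endothelial cells and less RNA of a gene per cell cannot be told apart.

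The junction genes include the widest contrast of the 37. Cldn5, the claudin of endothelial tight junctions, read 13.49, 13.49 and 13.33 in control lung and 4.28, 4.07 and 4.52 in control liver. That is 567-fold higher in lung (limma adjusted p = 6.38e-08). Pecam1, the adhesion protein CD31 at the borders between endothelial cells, read 12.50, 12.57 and 12.57 in control lung and 5.10, 4.61 and 4.51 in control liver, 224-fold higher (limma adjusted p = 2.52e-07). Icam2, a constitutive leukocyte ligand, was 188-fold higher in lung. Cd34, a sialomucin of vessels and progenitors, was at least 110-fold higher, and Emcn, an endothelial sialomucin, at least 53.4-fold, each a lower bound set against the filter value of 4 because the liver arrays lay below it. Esam differed 31.7-fold, Cdh5, the cadherin of adherens junctions, 22.4-fold, and the TGF-beta co-receptor Eng, Plvap and Robo4 7.08-, 7.07- and 6.63-fold. All 10 junction and surface genes passed.

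Haemostatic and vasoactive genes followed the same order of organs. Vwf, which carries platelets to injured vessel walls, was 207-fold higher in control lung and Thbd, the thrombin-binding anticoagulant receptor, 201-fold. Egfl7, a secreted vessel protein, was 16.0-fold higher. Ramp2 and Calcrl, the chains of the adrenomedullin receptor, were 88.7- and 25.1-fold higher. The endothelin gene Edn1 was at least 30.6-fold higher, its receptor gene Ednrb 6.84-fold and the nitric oxide synthase Nos3 2.52-fold. Of the transcription factors, Sox17 was at least 84.9-fold higher, Sox18 60.6-fold and the flow-induced Klf2 19.1-fold. Erg, an ETS factor of endothelium, read 2.04 to 2.07 on every array of the series and was not tested.

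The growth factor receptors passed as well, Flt4 narrowly. Of the VEGF receptors, Flt1 was 20.1-fold and Kdr 6.35-fold higher in control lung. Flt4, the receptor of lymphatic endothelium, was 1.41-fold higher (limma adjusted p = 0.0473), and its groups overlapped. Flt4 kept this call in 10 of 18 alternatives: with median centring the log2 difference of 0.49 became 0.07 (limma adjusted p = 0.737), and the call ended without lung control 1 or 2 or liver control 2 or 3. Tek and Tie1, the receptor of the angiopoietins and its partner, were 42.2- and 36.1-fold higher. The Tie1 fold is rough, since its control liver arrays read 3.69, 4.72 and 3.64, around the filter value of 4. The Tek ligand Angpt1, with every liver array at 2.18, under the filter, was at least 7.70-fold higher. Angpt2, the context-dependent ligand of the same receptor, lay at or under 4 in both control groups.

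Scavenger genes did not all run with lung. Stab2, a hyaluronan receptor of liver sinusoids, read 2.19, 2.15 and 2.06 in control lung and 9.71, 9.74 and 9.77 in control liver, at least 53.5-fold lower in lung (limma adjusted p = 2.18e-08). Its homologue Stab1 was 1.79-fold higher in lung. Lyve1, the hyaluronan receptor used as a marker of lymphatic and sinusoidal endothelium, was 39.0-fold higher in control lung, and the fatty acid receptor Cd36 18.1-fold. On the 2 lung arrays rich in hepatocyte transcripts Stab2 stayed at 2.06 and 2.32. Their hepatocyte means, 10.37 and 9.29, lay far under the 15.58 to 15.65 of liver arrays. A like reduction of the liver level of Stab2 would leave it under the filter. Whether these arrays held sinusoidal RNA was not tested. Over all 12 arrays, tumor-bearing mice included, 31 of the 37 members had every lung array above every liver array, Stab2 had every one below, and 5 (Flt4, Erg, Angpt2, Sele and Selp) overlapped.

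**Figure D1:**
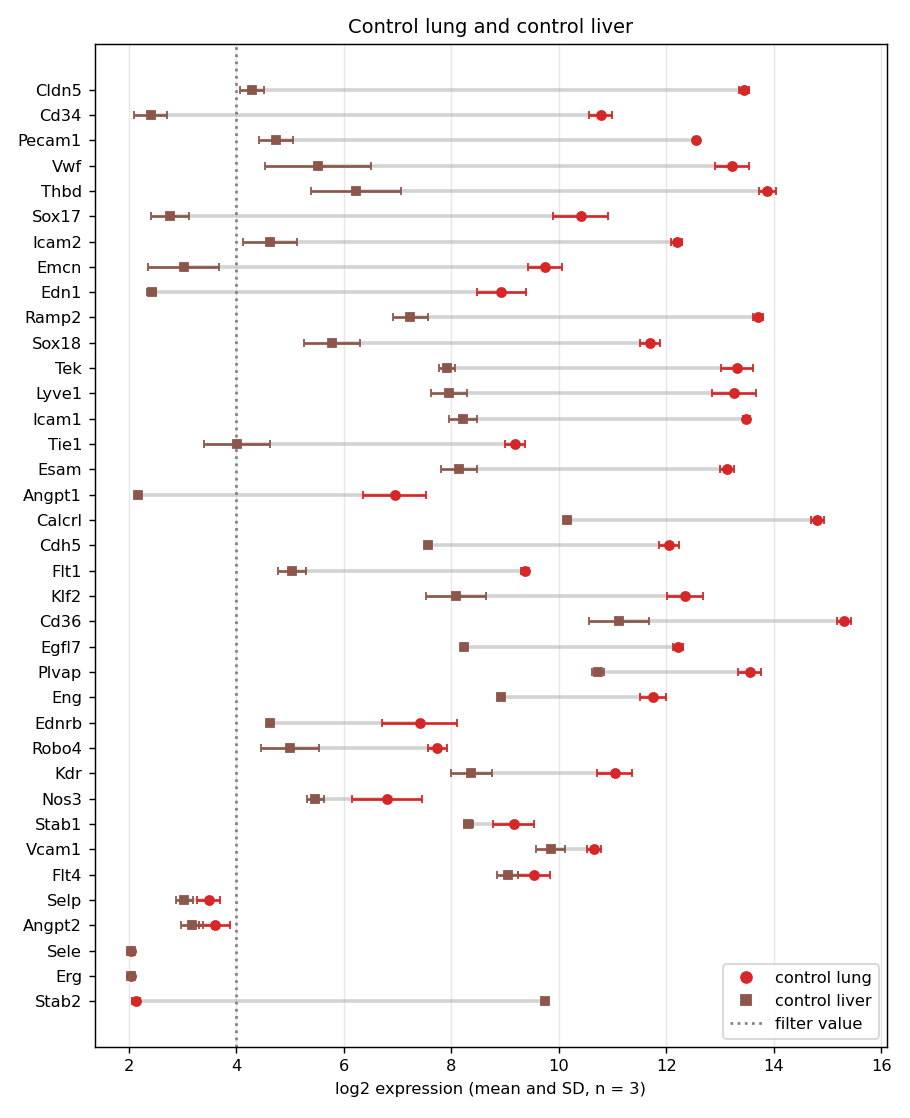
Mean log2 expression and SD (n = 3 arrays) of all 37 genes in control lung (circles) and control liver (squares), ordered by the difference, with the filter value of 4 dotted. Cldn5 lies at the top with a difference of 9.15 and Stab2, whose lung values lie under the filter, at the bottom.

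Of the adhesion genes, Icam1 and Vcam1 were measured above the filter and both were higher in control lung. Icam1, the ligand of leukocyte beta-2 integrins, read 13.51, 13.54 and 13.41 in control lung and 8.26, 8.44 and 7.93 in control liver, 38.8-fold higher in lung (limma adjusted p = 6.17e-07). Vcam1, the ligand of the integrin VLA-4, was 1.75-fold higher. The median difference was 3.04 for these genes and 4.77 for the 31 identity genes tested, a description with no test. Sele, the E-selectin gene, read 2.04, the array minimum, on every array of both organs.

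Against this contrast, none of the 37 genes passed the threshold between tumor-bearing and control lung. Of 32 members tested 0 were called and 1, Cldn5, had an unadjusted p under 0.05. Over all 7907 genes tested 58 were called, 0.734%. Mean levels were higher in tumor-bearing lung for 16 members and lower for 16, with a median change of 0.00 (all genes -0.01) and a median absolute change of 0.16 (all genes 0.15). Changes ran from -0.97 to 0.44. The 95% intervals of 25 of the 32 lay within a 2-fold change in either direction; those of Flt1, Nos3, Edn1, Ednrb, Sox17, Sox18 and Angpt1 reached beyond. Erg, Stab2, Angpt2, Sele and Selp had too few arrays above the filter and were not tested. Angpt2 read 3.31, 3.89 and 3.59 in control lung and 4.19, 3.31 and 4.20 in tumor-bearing lung. Arrays did not overlap between the groups for 2 of the 32 members, where 18.6% of all genes tested did not overlap.

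Cldn5 in lung was the junction gene with the largest change. It read 13.49, 13.49 and 13.33 in control lung and 13.69, 13.68 and 13.76 in tumor-bearing lung. Every tumor array lay above every control array, by a change of 0.27 with SE 0.09 (95% interval 0.06 to 0.49), 1.21-fold, with a limma adjusted p of 0.275. Pecam1, named after its values were seen because its arrays did not overlap, read 12.50, 12.57 and 12.57 in control and 12.16, 12.46 and 12.44 in tumor-bearing lung. Its change of -0.20 had a limma adjusted p of 0.532. Both shifts are small beside the contrast between organs.

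Kdr, the main signalling receptor for VEGF, had the largest change of its group in lung. It read 11.42, 10.86 and 10.84 in control lung and 11.43, 11.24 and 11.78 in tumor-bearing lung, and the groups overlapped. The change was 0.44 with SE 0.21 (limma adjusted p = 0.456). Klf2 read 12.28, 12.72 and 12.06 in control lung and 12.74, 12.95 and 12.39 in tumor-bearing lung, a change of 0.34 (limma adjusted p = 0.584). Each tumor array of Klf2 was above at least 1 control array, with overlap. Vwf read 13.57, 13.05 and 13.03 against 13.75, 13.07 and 13.41, a change of 0.19 (limma adjusted p = 0.768). Stab1 read 9.57, 9.08 and 8.83 against 9.21, 8.98 and 9.51, a change of 0.07 (limma adjusted p = 0.924).

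Edn1 and Angpt1 had the lowest changes in lung. Edn1 read 8.52, 9.44 and 8.85 in control lung and 7.15, 8.65 and 8.10 in tumor-bearing lung, a change of -0.97 with SE 0.43 (limma adjusted p = 0.419). Angpt1 read 6.27, 7.39 and 7.18 in control lung and 5.20, 6.89 and 6.25 in tumor-bearing lung, a change of -0.83 with SE 0.50 (limma adjusted p = 0.554). For both genes the lowest value was in tumor 1, and control 1 was the lowest control. The same arrays were the lowest in cardiac markers, but in the other order. The cardiac mean was 4.23 in control 1 and 6.28 in tumor 1. Leaving out tumor 1 alone gave changes of -0.56 for Edn1 and -0.38 for Angpt1. Over all alternatives in lung the change ran from -1.31 to -0.56 for Edn1 and from -1.22 to -0.26 for Angpt1. The part of cardiac tissue in these values was not tested.

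**Figure D2:**
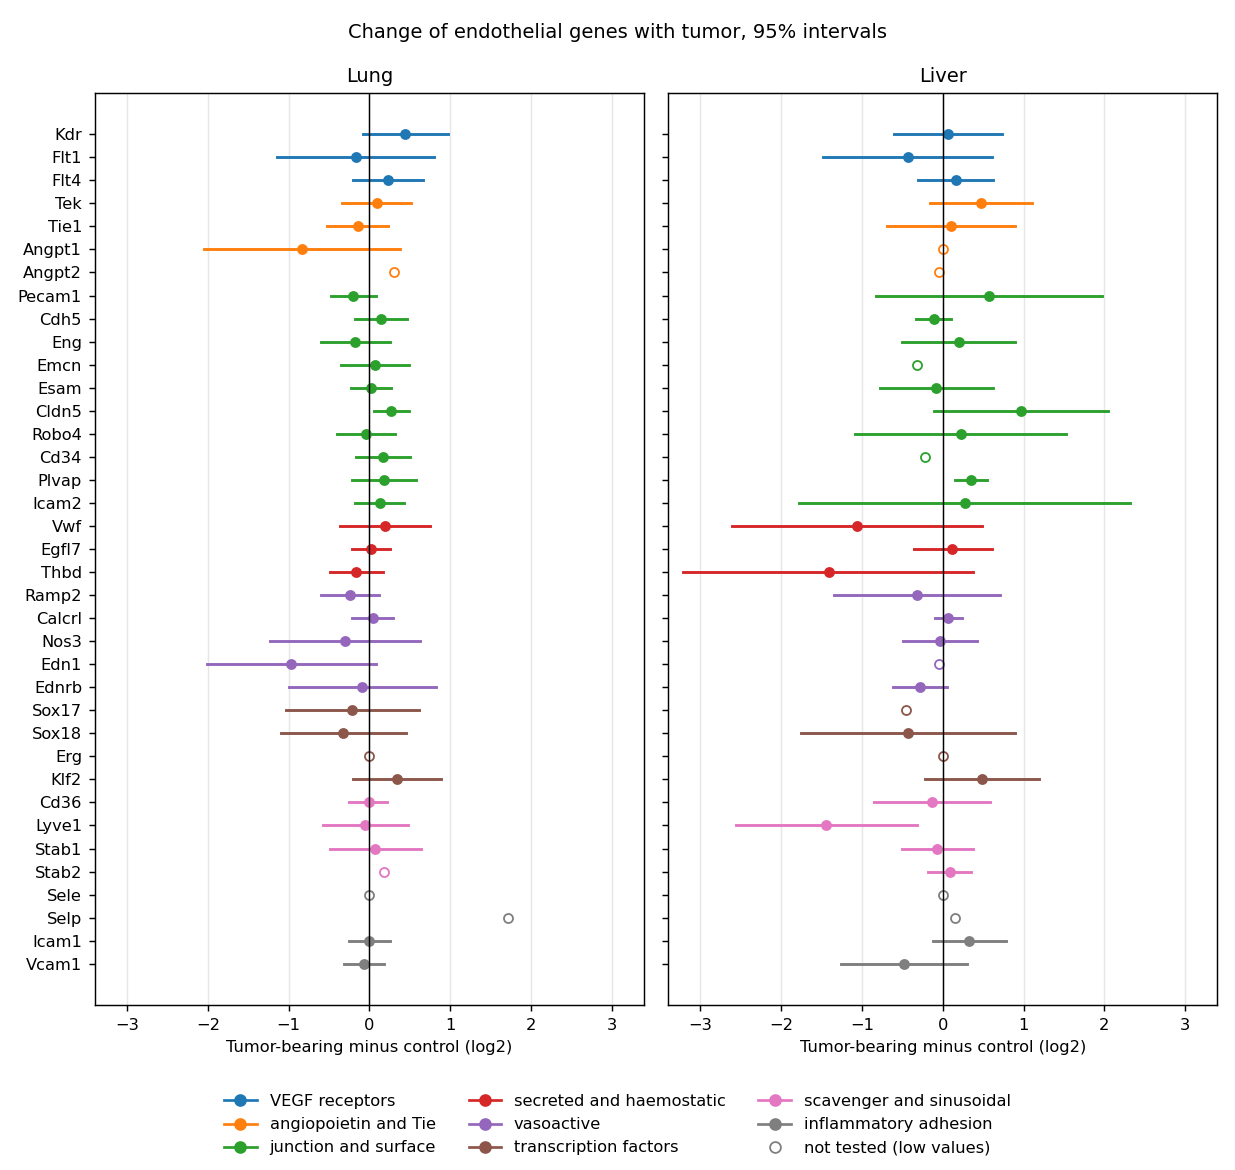
Log2 difference between tumor-bearing and control mice for all 37 genes in lung and in liver, coloured by role. Genes tested have 95% intervals (limma), and open circles mark genes with too few arrays above the filter for a test. The interval of Cldn5 in lung and those of Plvap and Lyve1 in liver do not reach 0, and Lyve1 in liver has the lowest change at -1.44.

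In liver, likewise, 0 of 28 members tested were called, and 2, Plvap and Lyve1, had an unadjusted p under 0.05. Over all 7712 genes tested 144 were called, 1.87%, of which 95 were lower and 49 higher; after a further quantile normalization the split was 40 lower and 45 higher. Member means were higher in tumor-bearing liver for 15 and lower for 13, with a median change of 0.07 (all genes -0.07) and a median absolute change of 0.28 (all genes 0.20). The intervals were wider than in lung, with 15 of 28 within a 2-fold change either way. Not tested, being under the filter, were Emcn, Edn1, Sox17, Erg, Cd34, Angpt1, Angpt2, Sele and Selp. Arrays did not overlap for 2 of the 28 members, where 33.1% of all genes tested did not overlap.

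Lyve1 had the lowest change in liver. It read 8.28, 7.62 and 7.98 in control liver and 6.14, 5.91 and 7.50 in tumor-bearing liver. All tumor arrays lay below all control arrays, with tumor 3 near them. The difference was -1.44 with SE 0.45 (95% interval -2.56 to -0.32), 2.72-fold lower on means of 6.52 ± 0.86 against 7.96 ± 0.33 (SD, n = 3), with a limma adjusted p of 0.124. The second Lyve1 probe set also had lower values on every tumor array, with a change of -1.35. With all 12 arrays in a single limma fit Lyve1 passed (adjusted p = 0.0394), and over its alternatives the adjusted p ran from 0.0394 to 0.297. On the same arrays Stab2, the other hyaluronan receptor of sinusoids, read 9.71, 9.74 and 9.77 in control liver and 9.66, 10.02 and 9.80 in tumor-bearing liver, with overlapping groups.

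Plvap, the protein of fenestral diaphragms, was named after its values were seen. It read 10.80, 10.60 and 10.79 in control liver and 11.05, 11.11 and 11.08 in tumor-bearing liver, so that every tumor array was above every control array. The change was 0.35 with SE 0.08, 1.27-fold, with a limma adjusted p of 0.0808. Across alternatives the change ran from 0.28 to 0.42. In lung its groups overlapped, with a change of 0.18.

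Haemostatic genes in liver were scattered. Thbd read 5.60, 7.17 and 5.93 in control liver and 5.96, 3.50 and 4.99 in tumor-bearing liver, a change of -1.41 with SE 0.72 (95% interval -3.21 to 0.38, limma adjusted p = 0.275). Control 2 was high and tumor 2 low, and without control 2 the change was -0.95, without tumor 2 -0.76 and without tumor 1 -1.99. Vwf, at 4.60, 6.55 and 5.41 in control against 3.91, 5.41 and 4.06 in tumor-bearing liver, had a change of -1.06 (limma adjusted p = 0.334). It was -0.55 without control 2, -1.52 without control 1 and -1.54 without tumor 2. Control 2 also had the highest alveolar mean of the liver arrays and the highest platelet mean, 3.60 against 2.85 to 3.06. Single genes carried these means. Ppbp read 6.04 in control 2 against 2.04 to 2.48 on the other liver arrays, but Pf4 read 7.45 against 7.52 in control 3. Sftpc read 6.54 in control 2, but Sftpd read 2.92 against 4.21 in control 3. The part of these transcripts was not tested. Cldn5, with liver values of 4.28, 4.07 and 4.52 in control and 5.62, 4.28 and 5.88 in tumor-bearing mice, had a change of 0.97 (limma adjusted p = 0.223), with tumor 2 among the controls.

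**Figure D3:**
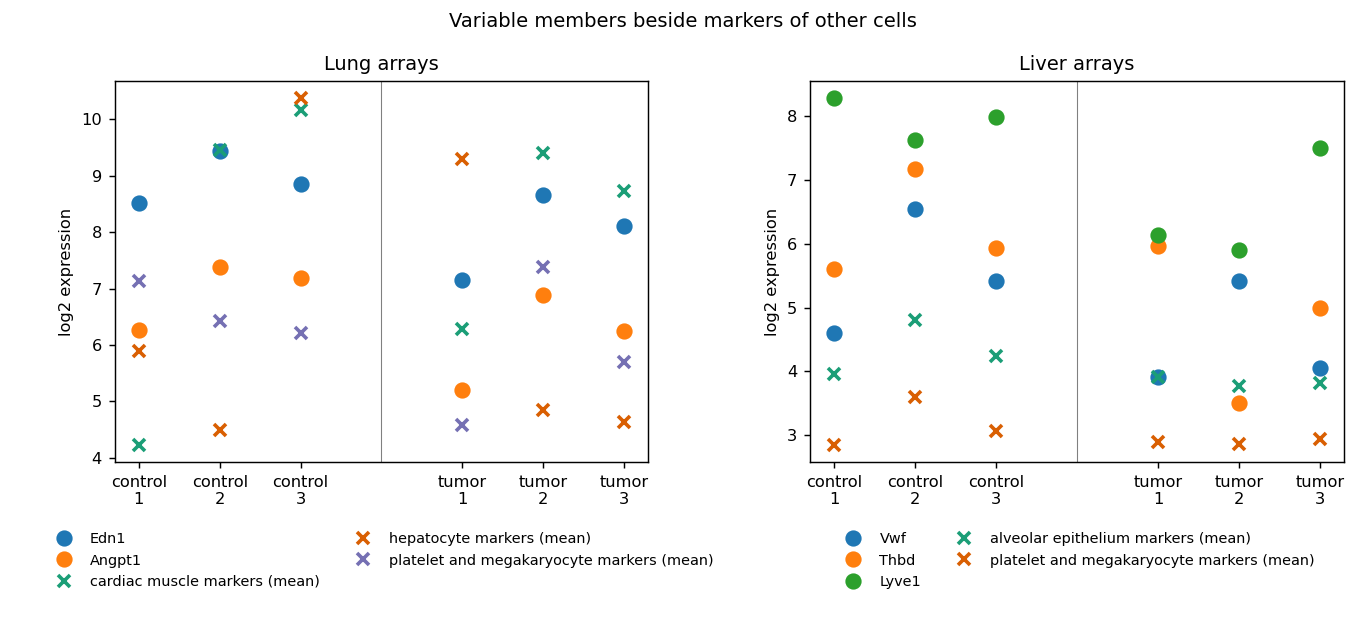
Log2 expression on each array of 5 members with wide spread within groups (filled circles), beside the mean log2 level of markers of other cells (crosses), for lung (left) and liver (right). Edn1 and Angpt1 are lowest in lung tumor 1, where the cardiac mean is 6.28, against 4.23 in lung control 1. Vwf and Thbd are highest in liver control 2, where the alveolar mean is 4.81.

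The remaining role groups in liver showed no member past the threshold. Flt1 read 5.18, 4.74 and 5.21 in control liver and 4.93, 5.22 and 3.68 in tumor-bearing liver, a change of -0.43 (limma adjusted p = 0.552). Its second probe set was lower on every tumor array, with a change of -0.65 (limma adjusted p = 0.0595 in the fit of all probe sets). The remaining Flt1 probe set had a change of 0.20 but read 2.25 to 3.50 on the liver arrays, under the filter. Tek read 8.01, 8.0 and 7.75 in control and 8.61, 7.83 and 8.74 in tumor-bearing liver, a change of 0.47 (limma adjusted p = 0.300), with tumor 2 within the control range. Klf2 read 7.54, 8.66 and 8.08 against 8.45, 8.68 and 8.61, a change of 0.49 (limma adjusted p = 0.331). Ramp2 read 7.46, 6.86 and 7.39 against 7.33, 6.01 and 7.40, a change of -0.32 (limma adjusted p = 0.653), with the low value in tumor 2.

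Some pan-endothelial genes were uneven among the tumor-bearing livers. Icam2 read 5.20, 4.49 and 4.21 in control liver and 5.11, 3.19 and 6.42 in tumor-bearing liver, so that tumor 2 was the lowest array and tumor 3 the highest. Its change was 1.13 without tumor 2 and -0.48 without tumor 3. Pecam1 read 5.10, 4.61 and 4.51 against 4.84, 4.51 and 6.58, a change of 0.57 that was -0.07 without tumor 3. Cdh5, by contrast, was even, at 7.50, 7.62 and 7.58 in control and 7.44, 7.35 and 7.57 in tumor-bearing liver, with overlapping groups.

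Probe sets of a gene did not always move together. Of the 12 members with several, all probe sets had the same sign of change for 6 in lung and for 4 in liver. These counts include probe sets under the filter, and a change of 0.00 breaks the agreement. In liver the second probe sets of Cdh5, at 2.77 to 2.84, and of Selp, at 2.04, are such cases. Sox17 in liver had 1 probe set lower and 1 higher on every tumor array, all at 2.04 to 3.27, under the filter. In a fit of all probe sets 0 of 47 member probe sets were called in lung and 0 of 39 in liver, where 0.407% and 1.54% of all probe sets tested were called.

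No adhesion gene passed the threshold in either organ. Icam1 read 13.51, 13.54 and 13.41 in control lung and 13.56, 13.33 and 13.58 in tumor-bearing lung, with a change of 0.00 (95% interval -0.25 to 0.26). In liver it read 8.26, 8.44 and 7.93 against 8.27, 8.73 and 8.62, a change of 0.33 (95% interval -0.12 to 0.78). Both sets of groups overlapped. Vcam1 read 10.66, 10.78 and 10.52 in control lung and 10.63, 10.55 and 10.57 in tumor-bearing lung, a change of -0.07 (95% interval -0.31 to 0.18). In liver it read 9.85, 10.11 and 9.57 against 8.99, 10.03 and 9.08, a change of -0.48 (95% interval -1.26 to 0.30). Tumor 1 and tumor 3 were low in liver. The other Vcam1 probe sets changed by -0.25 and 0.24 there, and the mean of the gene's probe sets by -0.16. The median changes of these 2 genes, -0.03 in lung and -0.08 in liver, stand beside 0.00 over 30 identity genes in lung and 0.07 over 26 in liver, with no test.

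Selp, the P-selectin gene of endothelium and platelets, was the adhesion gene whose lung arrays did not overlap. It read 3.64, 3.58 and 3.25 in control lung and 5.37, 6.33 and 3.91 in tumor-bearing lung. Tumor 1 and tumor 2 were above the filter value of 4 and tumor 3 was close to the controls. The means of 5.20 ± 1.22 and 3.49 ± 0.21 (SD, n = 3) give at least 2.30-fold, a bound set against 4 because the controls lie under it. Too few arrays passed the filter for a test; without the filter the change of 1.71 had a limma adjusted p of 0.593. The second Selp probe set read 3.72 in tumor 2 and 2.04 to 2.05 on the other lung arrays. In liver Selp read 2.86 to 3.26.

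Platelet markers (7 of 8 measured, Treml1 at the array minimum) averaged 7.14, 6.42 and 6.21 in control lung and 4.58, 7.39 and 5.70 in tumor-bearing lung. Tumor 2 had both the highest platelet mean and the highest Selp, whereas tumor 1 had the lowest platelet mean and more Selp than any control. Neutrophil markers (8 of 10 measured) averaged 5.55 to 6.65 in control lung and 9.87 to 10.71 in tumor-bearing lung. Their part in the Selp values was not tested.

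**Figure D4:**
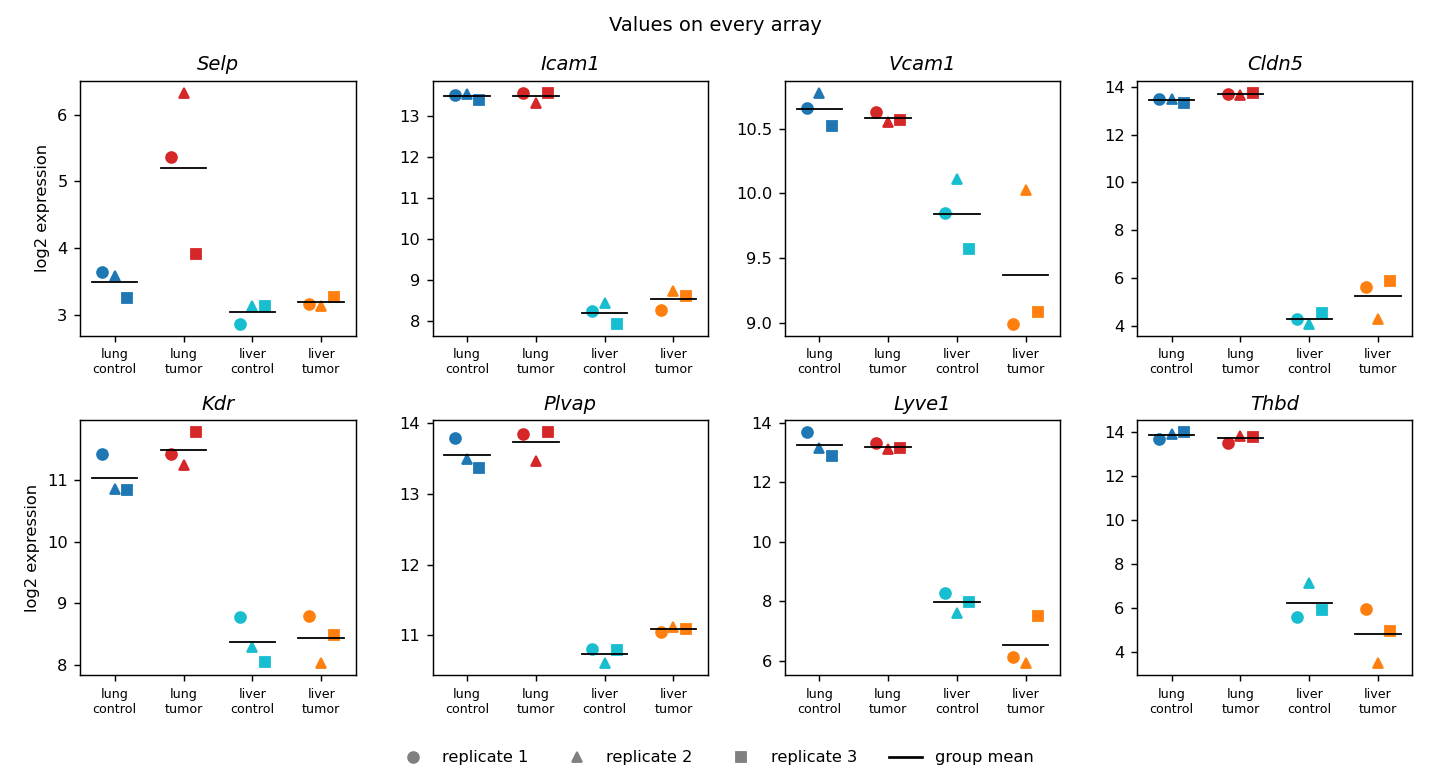
Log2 expression on each array for 8 genes in the 4 groups, with markers by replicate and bars at the group means of 3 arrays; the axes do not start at 0. Selp in tumor-bearing lung reads 3.91 to 6.33 against 3.25 to 3.64 in control lung, and Icam1 reads 13.33 to 13.58 on all lung arrays.

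The difference between the organs' responses was tested as an interaction on all 12 arrays. Lung and liver came from the same mice, but the labels do not state which arrays share a mouse, so the fit treats them as separate, as does that between control organs. Of 33 members 0 were called, against 1.55% of all 8433 genes tested. Emcn, Edn1, Sox17, Cd34 and Angpt1 lay under the filter value on every liver array, and Stab2 on every lung array. A change could hardly show there, so the interactions of these genes say little about a difference between the organs. Of the 33 members 1, Lyve1, had an unadjusted p under 0.05. Its tumor change was 1.40 higher in lung than in liver (SE 0.53, 95% interval 0.22 to 2.58, limma adjusted p = 0.218). Cldn5 had an interaction of -0.70 (limma adjusted p = 0.484) and Vwf one of 1.26 (limma adjusted p = 0.398). Leaving out liver tumor 2 brought Cldn5 past the threshold, at -1.19 (limma adjusted p = 0.0216), and leaving out liver tumor 3 brought Lyve1 past it, at 1.89 (limma adjusted p = 0.0359).

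Other genes of the pathways gave few calls. Of 22 tested VEGF, Notch and BMP partners 0 were called in lung, with Dll1, a Notch ligand, at 0.64 and Smad6, an inhibitor of BMP signalling, at -0.62; in liver 0 of 17 were called, with Nrp1, a VEGF co-receptor, at 1.00 (limma adjusted p = 0.0567) and Jag1, a Notch ligand, at -0.88 (limma adjusted p = 0.0604). Of the other endothelial transcription factors 0 of 16 were called in lung, where Lyl1 had the largest change, 1.88 (limma adjusted p = 0.0864), and Hhex followed at 0.83. Of these 16, 9 had an unadjusted p under 0.05, against 1042 of the 7907 genes tested, and the arrays of 8 did not overlap, against 18.6% of all genes tested. In liver 0 of 15 were called, with Foxo1 at -0.73 and Klf4 at -0.63. Of lung capillary genes 0 of 13 were called in lung, with Hpgd and S1pr1 each at -0.41, and 0 of 9 in liver, with Clec14a at -0.74 and Slc6a4 at 0.40.

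Among liver sinusoidal genes 1 of 9 tested rose in lung, where 0.734% of all genes tested were called. Fcgr2b, the inhibitory Fc receptor that B cells and macrophages also carry, was at 8.84 ± 0.14 in tumor-bearing and 7.64 ± 0.25 in control lung (SD, n = 3), a change of 1.20 with SE 0.15 and a limma adjusted p of 0.0393. Leaving out any 1 lung array ended this call. B cell markers (3 of 4 measured) averaged 5.88 to 6.48 in tumor-bearing and 3.51 to 4.23 in control lung, and their part was not tested. In liver 0 of 12 were called, with F8 at -0.85 and Dnase1l3 at 0.43.

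Leukocyte partners of the adhesion molecules and other cytokine-induced genes had no call in either organ. In lung 11 of 12 tested partners had a higher mean in tumor-bearing mice, where 47% of all genes tested did, with a median of 0.22 (all genes -0.01). Arrays did not overlap for 6 of the 12, against 18.6% of all genes tested. Itgam, the alpha chain of the integrin Mac-1 that binds ICAM-1, was at 2.84 (limma adjusted p = 0.0513), beside the neutrophil marker means given above. Cxcr2, a neutrophil chemokine receptor and itself among the markers in those means, was at 2.29 (limma adjusted p = 0.371). It read 3.31 on every control lung array and 4.99, 7.76 and 4.04 in tumor-bearing lung. Cxcr2 thus passed the filter through the tumor arrays alone, so its place in both counts of partners in lung was fixed in advance. In liver the median of 9 partners was 0.34 (all genes -0.07), with Cd44 at 0.72 and Sirpa at 0.51. Of 16 cytokine-induced genes tested in lung 12 had higher means, against 47% of all genes tested, with Tnfrsf1a at 0.77 and Lcn2 at 0.66. In liver 10 of 13 did, against 39.7% of all genes tested, with Cxcl1 at 1.56 and Cxcl10 at 0.65.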

How the data were processed

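The deposited data are log2 expression values of probe sets. The authors used GCRMA, a method with sequence-based background correction and quantile normalization, and limma, per the submitters' processing notes; their versions are not given there. Of 22626 probe sets, 20380 carried 1 gene symbol in the platform annotation, 691 several and 1555 were not listed; 2 probe sets shared by Ramp2 and another gene were left out. Each gene was read from its probe set with the highest mean over 12 arrays, and a gene was tested if 3 or more arrays in the fit read above 4 (log2). The fits used lmFit and eBayes of limma 3.58.1 in R 4.3.3, with Benjamini-Hochberg adjustment over all genes tested and a threshold of 0.05. A fold is a lower bound where all arrays of a group lie at or under 4; then 4 stands for that group. Alternatives covered the filter, the reading of probe sets, scaling, eBayes options, array weights, blocks and arrays left out.

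Members, lists and alternatives were chosen with earlier results of these data known. The rule for array values took members past the threshold with tumor, members not overlapping in both organs, the 4 adhesion genes and the member of each role group with the largest change per organ; of the other lists, for members called or else the 2 with the largest change. Members with array values outside the rule (Pecam1, Plvap, Icam2, Cdh5, Stab2, and Vwf in liver) were chosen after their values were seen. On simulated data holding 200 changed genes the fits, as tested, recovered 62.5% in lung, 66.5% in liver, 41% in the interaction and 67.5% between control organs for a log2 change of 1; for 2 they recovered 92%, 90%, 81% and 93%.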

Additional observations from a re-analysis of the deposited data

Results flagged for a closer look

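Among genes outside the 37, Itgam and Lyl1 passed the interaction test of the tumor changes in the organs (limma). Both lay under the filter value on every liver array, where a change could hardly show, so these interactions restate the lung changes of 2.84 and 1.88, which were not called in lung (adjusted p = 0.0513 and 0.0864). The tumor change of Itgam was 2.82 higher (log2) in lung than in liver, with an adjusted p of 0.0159, and it was past the threshold in 22 of the 22 alternatives in which it was tested. The tumor change of Lyl1, a transcription factor of blood and endothelial cells, was 1.88 higher in lung than in liver, with an adjusted p of 0.0385. It was past the threshold in 8 of 22 alternatives, and leaving out any 1 array other than lung tumor 1 ended the call.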

How the results depend on the processing

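The call of 0 members in lung held in all 18 alternatives. In liver 1 member was called with all 12 arrays in a single fit (Lyve1) and 1 at a threshold of 0.1 (Plvap). In the interaction 0 to 1 members were called when each array was left out. Between control organs 33 members were called and leaving out arrays gave 32 to 33; of 594 member values 10 lost their call, mostly of Flt4, with Nos3 (adjusted p = 0.0841, quantile) and Stab1 (0.0791, median centring). No called member reversed. Among uncalled members 19 of 32 in lung, 15 of 28 in liver and 18 of 33 in the interaction changed sign under some alternative.

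Counts over all genes moved more. Lung calls, 58, were 11 with no filter, 114 with eBayes trend and robust options, 99 with array weights, 231 with all 12 arrays, 0 without both hepatocyte-rich lung arrays, 4 without both arrays low in cardiac transcripts (an alternative chosen after seeing the data), and 5 to 33 with each array left out. Liver calls, 144, were 62 with no filter, 351 with a filter at 6, 85 with quantile normalization, 225 with median centring, 422 with trend and robust options, 729 with all 12 arrays, and 0 to 1 with each array left out. Interaction calls, 131, were 64 without the hepatocyte-rich arrays and 57 to 145 with each array left out. Calls between control organs, 6705, were 10097 with all probe sets fitted.

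The median interaction of identity genes, 0.09, was -0.08 with the mean of a gene's probe sets, -0.03 with quantile normalization and -0.09 to 0.11 with each array left out. Their median contrast between control organs, 4.77, was 4.65 with no filter, 4.99 with the mean of probe sets, 4.34 with median centring, 4.66 with array weights, 4.65 without the hepatocyte-rich arrays and 4.65 to 4.98 with each array left out. The median of the adhesion genes, 3.04, was 0.63 with no filter (which adds Sele and Selp) and 2.61 with median centring. The cause was not tested in any of these except where fewer arrays or other genes enter by construction.

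Replicate numbers did not pair the samples: deviations of same-numbered tumor and control arrays correlated at -0.36 to 0.28 in lung and -0.03 to 0.11 in liver, and those of same-numbered lung and liver arrays of an arm at 0.02 to 0.09. With the array number in the sample descriptions, shared by the organs, as a random block (consensus correlation 0.04 and 0.05) 0 members were called in the interaction and 33 between control organs. With the replicate number as a block 1 gene was called in lung, 0 in liver and 70 in the interaction, and 0 members in each. Sele, Selp, Erg and Angpt2 had too few arrays above the filter for a test in any comparison as filtered.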
